A study of Mus musculus with 2 samples.

Results

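TGFβ-only promoter peaks are places near the start of a protein-coding gene that were called as open chromatin after 2 h of TGFβ1 and had no counterpart in the vehicle peak list. Of the 22600 distinct peaks of the TGFβ 2 h list, 7611 shared no base with a vehicle peak (33.7%), and 804 of those overlapped the 1000 bp on either side of a coding transcript start. They made up 8.01% of the 10043 promoter peaks of that list. The peaks were selected on their position and on being called in one list and not in the other, so absence from the vehicle list is the rule and not a result. It says that no peak was called there, not that the DNA was closed.

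The peaks come from DNaseI-seq of NMuMG cells, a mouse line grown from the epithelium of a healthy mammary gland and widely used to study TGFβ-driven epithelial-to-mesenchymal transition (EMT). In both conditions the cells were first kept for 6 h without serum and insulin. One culture condition then received TGFβ1 at 5 ng/ml for 2 h and the other received the carrier for the same time, which the labels describe in one field as HCl with BSA and in another as Tris-HCl with BSA. The vehicle list held 17784 distinct peaks, of which 9632 were promoter peaks. Each condition had 1 deposited list, so no spread between replicates could be measured and the conditions were not tested against each other. The study's reporting summary gives the vehicle library more reads than the TGFβ library. Those numbers were not used, and the part of depth in any difference between the lists was not tested. All 95% intervals below cover the counting of peaks only. The labelled cell type was looked up at its markers. Promoter peaks were present in both lists at 5 of 10 mammary epithelial markers (Cdh1, Krt8, Krt18, Krt19 and Elf3), and in neither list at the markers of fibroblasts, immune cells, endothelium or liver. Epcam, Cldn3, Cldn4, Esrp1 and Grhl2 had no promoter peak in either list, and of 4 neuronal markers Snap25 had one in both.

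TGFβ binds a receptor kinase pair at the cell surface, which phosphorylates SMAD2 and SMAD3. These then enter the nucleus with SMAD4 and bind DNA next to partner factors, among them AP-1, the dimer of Jun and Fos family proteins. DNaseI cuts DNA that is not wrapped in nucleosomes, and the start of an active gene is usually such a place in any cell that uses the gene. Many mammalian promoters lie in CpG islands, stretches rich in G, C and the CG dinucleotide that tend to be open in many cell types. Many genes also have more than one start. The most upstream one is called the first start below, and any start downstream of it is called alternative.

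The sequences below show the letters the later results turn on, each on the strand of its gene, on assembly mm9. The 3 following are the 200 bp around the midpoint of TGFβ-only peaks in the windows of alternative starts of Abr, Hip1r and Prkci. The midpoints lay 1407 bp upstream of that start in Abr and 668 and 348 bp downstream of it in Hip1r and Prkci. The sequences are thus not the starts themselves. They were taken by the rule given under the processing steps, overlap no annotated exon and carry the AP-1 motif TGACTCA, which is in capitals. Hip1r held 2 copies and the others 1.
Abr, chr11:76283274-76283473, minus strand: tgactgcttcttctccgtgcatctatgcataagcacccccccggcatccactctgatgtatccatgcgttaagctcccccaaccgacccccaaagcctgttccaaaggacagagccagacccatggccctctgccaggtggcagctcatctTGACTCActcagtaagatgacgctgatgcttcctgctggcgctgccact
Hip1r, chr5:124430831-124431030, plus strand: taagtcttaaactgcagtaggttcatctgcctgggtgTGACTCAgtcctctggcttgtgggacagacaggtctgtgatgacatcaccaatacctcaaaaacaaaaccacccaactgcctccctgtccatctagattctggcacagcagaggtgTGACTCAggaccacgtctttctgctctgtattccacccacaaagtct
Prkci, chr3:30937620-30937819, plus strand: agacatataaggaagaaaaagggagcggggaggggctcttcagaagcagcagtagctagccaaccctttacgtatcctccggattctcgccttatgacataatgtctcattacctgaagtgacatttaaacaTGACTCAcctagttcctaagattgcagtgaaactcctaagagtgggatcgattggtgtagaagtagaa

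The next 3 were added after their motifs had been seen, because the genes belong to the TGFβ, contractile and AP-1 gene lists described further on. In Mylk and Mafk the capitals mark the AP-1 motif, read in Mylk as its reverse complement, TGAGTCA. In Smad6 they mark GTCTAGAC, the SMAD palindrome, which spans the annotated start at position 63869866 with 4 bases on each side.
Mylk, chr16:34784809-34785006, plus strand: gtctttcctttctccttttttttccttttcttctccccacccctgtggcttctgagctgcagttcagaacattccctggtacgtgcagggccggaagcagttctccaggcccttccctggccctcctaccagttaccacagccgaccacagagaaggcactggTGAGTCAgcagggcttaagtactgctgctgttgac
Mafk, chr5:140272982-140273181, plus strand: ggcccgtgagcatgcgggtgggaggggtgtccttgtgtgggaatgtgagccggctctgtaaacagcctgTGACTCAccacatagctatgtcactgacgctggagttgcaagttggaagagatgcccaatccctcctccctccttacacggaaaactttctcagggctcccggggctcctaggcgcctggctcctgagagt
Smad6, chr9:63869863-63870013, minus strand: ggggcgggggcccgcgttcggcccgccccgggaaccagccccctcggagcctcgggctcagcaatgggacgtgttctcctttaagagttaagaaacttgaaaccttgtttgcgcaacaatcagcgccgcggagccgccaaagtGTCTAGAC

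The first question was at which starts the TGFβ-only promoter peaks lay. Of the 804 peaks, 606 were at the first start of a gene (75.4%, 95% interval 72.3 to 78.2) and 198 were at alternative starts only. Among the 9239 promoter peaks shared with vehicle, 92.8% were at a first start, and among the 606 vehicle-only promoter peaks 85.1% were (82.1 to 87.8). Seen from the starts, 6.60% of the 9176 peaks at first starts were TGFβ-only, against 22.8% of the 867 peaks at alternative starts only (20.2 to 25.7). The share was higher at alternative starts within each of 5 bins of the peak score. In the lowest bin it was 67.0% (57.0 to 75.7) against 53.1% (48.4 to 57.8), the only bin where the intervals meet, and among peaks at the score ceiling it was 3.35% (2.01 to 5.54) against 0.583% (0.427 to 0.796). The alternative starts of these 198 peaks lay a median of 14065 bp downstream of the first start, with an interquartile range from 5066 to 57561 bp.

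The midpoints of TGFβ-only peaks spread further from the start than those of shared peaks. A midpoint within 100 bp of a start was found for 33.0% of them (29.8 to 36.3), for 30.5% of vehicle-only peaks (27.0 to 34.3) and for 52.9% of shared promoter peaks (51.9 to 53.9). The median distance was 185.5 bp for TGFβ-only, 192.5 bp for vehicle-only and 93 bp for shared peaks. A base of the start itself lay inside 55.3% of TGFβ-only peaks, 61.9% of vehicle-only peaks and 92.3% of shared peaks. In these measures the TGFβ-only peaks lay near the vehicle-only peaks and away from the shared ones. On the side of the start they did not: midpoints were downstream in 54.7% of TGFβ-only (51.3 to 58.1), 65.0% of vehicle-only (61.1 to 68.7) and 59.0% of shared peaks (58.0 to 60.0). This direction turned under both limits on the score, with 46.1% of TGFβ-only midpoints downstream when only as many of the highest-scoring TGFβ 2 h peaks were kept as there are vehicle peaks and 35.8% at the score ceiling. Among the peaks at alternative starts only, 66.7% had the midpoint in an intron, and the rest lay in exons of coding transcripts.

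**Figure D1:**
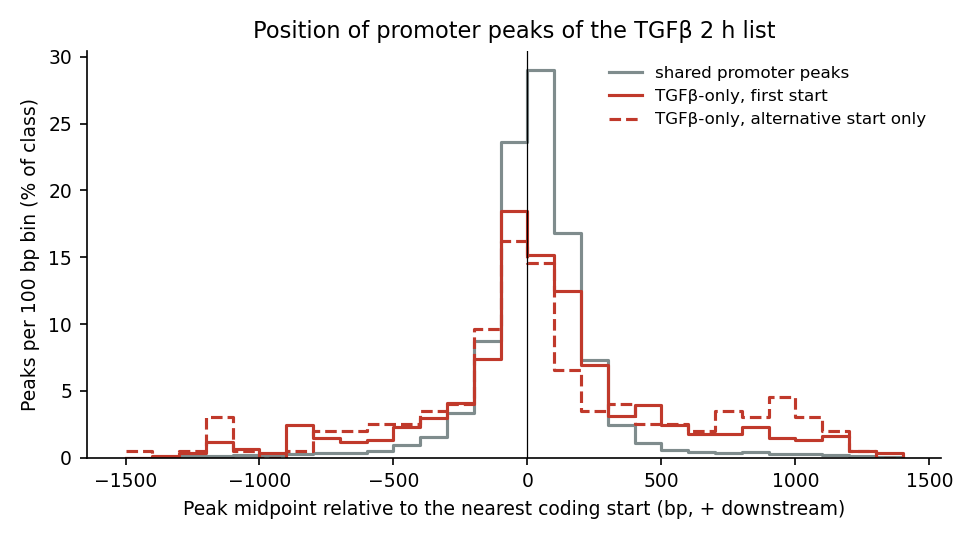
Share of each class of peaks (y axis, % of the class) by the position of the peak midpoint relative to the nearest coding start (x axis, bp, positive downstream, bins of 100 bp). The 9239 shared promoter peaks are in grey, and the TGFβ-only peaks in red, with a solid line for the 606 at first starts and a dashed line for the 198 at alternative starts. In the bin just upstream of the start lay 18.5% of the first-start, 16.2% of the alternative-start and 23.6% of the shared peaks, and the midpoints over 500 bp downstream were 15.7% of all TGFβ-only against 2.76% of shared peaks.

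The second question was whether the gene was also open elsewhere. At 574 of the 804 peaks (71.4%, 68.2 to 74.4) no start of the gene carried a shared peak, and at 550 (68.4%) no start carried a vehicle peak of any kind. A further 104 peaks (12.9%) belonged to genes with a shared peak at another start only. The remaining 126 (15.7%) had a shared peak in the same start window, and the gap from these to the nearest vehicle peak had a median of 287 bp. Such a peak lies beside a peak called in both lists, so its start window was not called in the TGFβ 2 h list alone. Some of these peaks still covered the start itself, as at Smad6 and Foxq1. The 15.7% became 7.95% with a window of 500 bp and 0.610% for peaks over 1000 bp from any vehicle peak. It became 22.8% when a shared peak needed a reciprocal overlap of 50%. Of the vehicle-only promoter peaks, 69.5% had no shared peak at any start (65.7 to 73.0), an interval that meets that of the TGFβ-only peaks, and 21.9% had one at the same start (18.8 to 25.4). The split differed by start. No shared peak stood at any start for 480 of the 606 first-start peaks (79.2%, 75.8 to 82.3), but for 94 of the 198 alternative-start peaks (47.5%, 40.6 to 54.4). For 87 of the 198 (43.9%) the first start of the same gene carried a shared peak. For scale, 10101 of all 22378 coding genes had a vehicle peak at some start, a looser measure than a shared peak at the first start. A gene with an alternative start has over 1 start by definition, and the part of the number of starts in this contrast was not tested. The genes had a median of 4 starts at alternative-start peaks (interquartile range 3 to 6) and of 2 at first-start peaks (1 to 3).

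**Figure D2:**
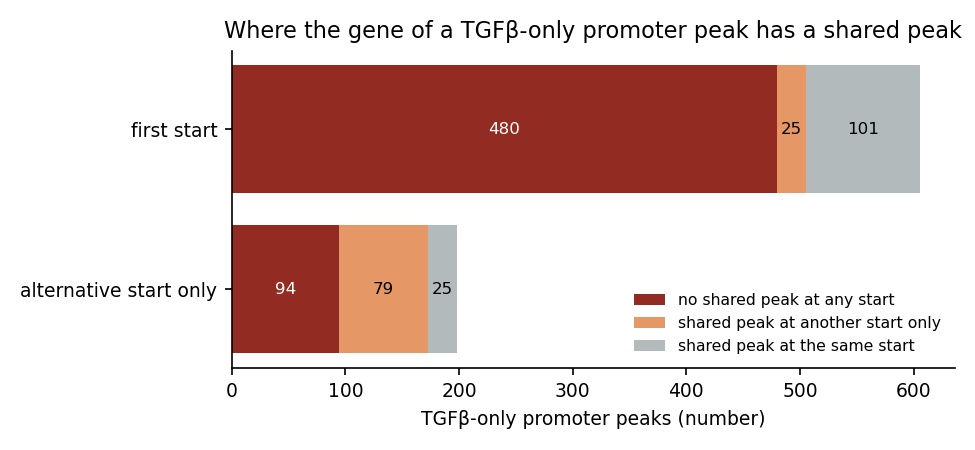
Number of TGFβ-only promoter peaks (x axis) at first starts and at alternative starts only (bars), divided by where their gene has a peak shared with vehicle. No shared peak at any start is the major class at first starts (480 of 606), and shared peaks at another start only are more frequent at alternative starts (79 of 198) than at first starts (25 of 606), where genes with a single start are included.

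Counted by gene, 792 of the 22378 annotated coding genes had a TGFβ-only promoter peak, which is 3.54% of all and 7.74% of the 10230 with any TGFβ 2 h promoter peak. Of these 792 genes, 555 had no shared peak at any start and 528 had no vehicle peak there either. In the opposite direction, 406 genes had a vehicle peak and no TGFβ 2 h peak at their starts. These numbers come from lists of unequal length. With only the highest-scoring TGFβ 2 h peaks kept, to the number of vehicle peaks, the 555 genes became 261, so no order between the directions is read from them. When a shared peak needed a reciprocal overlap of 50%, the 555 became 909. Both lists thus held genes with a promoter peak called in that list alone, and a single list per condition gives no measure of how many would differ between repeats of 1 condition.

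At the thresholds of the rule, the TGFβ-only peak at Dcaf12l2 abutted a vehicle peak without a shared base, and that at Tmem219 lay 20 bp from one. Just outside, the peaks at Clptm1 and Sumo3 were left out for overlaps of 2 and 11 bp. The included peaks farthest from a start had their nearest base 999 bp (Schip1) and 995 bp (Blcap) away, and peaks at 1002 bp (Casq2) and 1003 bp (Vill) fell outside the window.

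TGFβ-only promoter peaks were narrow and of low score. Their median width was 447.5 bp, against 800 bp for shared and 561 bp for vehicle-only promoter peaks, and 435 bp for the 6807 TGFβ-only peaks away from coding starts. At the score ceiling of 1000 were 53 of the 804 (6.59%, 5.07 to 8.52), against 8.42% of vehicle-only (6.46 to 10.9) and 76.4% of shared promoter peaks. The 6.59% became 18.8% when a shared peak needed a reciprocal overlap of 50%. It became 13.4% with the TGFβ 2 h list cut by score to the number of vehicle peaks. Scores rank peaks within a list only, so those of the vehicle-only peaks are not on the same scale. The share of promoter peaks that were TGFβ-only fell from 55.6% in the lowest score bin (540 to 610) through 38.3%, 20.3% and 8.06% to 0.746% at the ceiling. Away from coding starts the same bins held 80.1%, 70.7%, 59.6%, 44.6% and 18.6%. In each of the 5 bins a promoter peak was thus less often TGFβ-only than a peak elsewhere. The bins are wide and the ceiling, with 7109 promoter peaks and 2898 others, does not rank its peaks, so the scores compared were alike only within these limits.

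**Figure D3:**
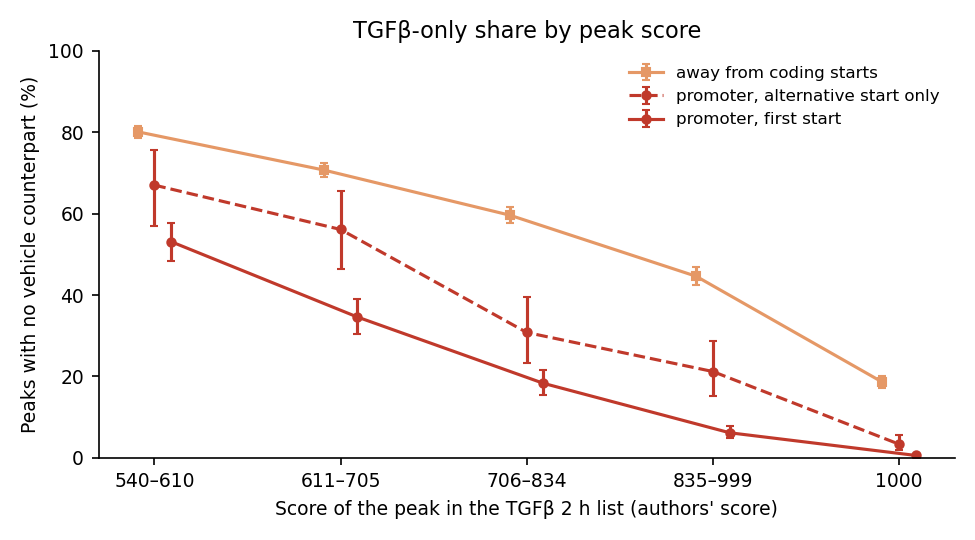
Share of TGFβ 2 h peaks without a vehicle counterpart (y axis, %) in 5 bins of the authors' score (x axis, 1000 is the ceiling), for peaks away from coding starts (orange), at alternative starts only (red, dashed) and at first starts (red, solid). Bars are Wilson 95% intervals over peaks. The order of the 3 lines is the same in every bin, from 80.1%, 67.0% and 53.1% in the lowest to 18.6%, 3.35% and 0.583% at the ceiling.

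Base composition separated the same classes. CpG-rich here means a GC content of at least 50% and an observed-to-expected CG ratio of at least 0.6 in the 200 bp around the midpoint. This held for 46.9% of TGFβ-only (43.5 to 50.3), 54.5% of vehicle-only (50.5 to 58.4) and 85.8% of shared promoter peaks, and for 3.72% of TGFβ-only peaks away from coding starts. The median GC content was 60.5%, 62.5%, 68.0% and 51.0% in that order. Of the TGFβ-only peaks, those at first starts were CpG-rich in 53.5% (49.5 to 57.4) and those at alternative starts in 26.8% (21.1 to 33.3). Of all CpG-rich promoter peaks of the TGFβ 2 h list 4.54% were TGFβ-only, and of the others 24.6%, with the same order in every score bin. The intervals met in the lowest bin only, with 50.5% (44.7 to 56.4) against 61.4% (55.2 to 67.2).

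Genes were next looked up in 16 lists chosen for the TGFβ response and for epithelial cells. Of 302 listed genes 29 had a TGFβ-only promoter peak (9.60%), and of the 219 with any TGFβ 2 h promoter peak 13.2% did, beside 3.54% and 7.74% for all coding genes. The lists were chosen with results of these data known, so these shares describe the lists and are no evidence about them. No member was found in the lists of EMT transcription factors, integrins, EGF receptors and ligands, or cytosolic ribosomal proteins.

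Among the 17 TGFβ receptors and Smads, 2 had a TGFβ-only peak. Smad6 codes for an inhibitory Smad that limits signalling by the receptors. Its peak was 511 bp wide, stood at the score ceiling and covered the single annotated start, with the nearest vehicle peak 301 bp upstream and a shared peak in the same start window. Eng codes for endoglin, a co-receptor. Its peak scored 810, was centred 1117 bp upstream of an alternative start in a coding exon, and no start of the gene had a shared peak. Of 16 TGFβ family ligands and latent binding proteins, Inhbb and Gdf11 had one. Inhbb codes for a subunit of activins and inhibins, and its peak of 133 bp scored 544, near the lowest score in the list. Gdf11 codes for a secreted ligand of the family, and its peak of 773 bp scored 677 and covered the first start. Of 21 feedback and early target genes Lmcd1 alone had one, centred 860 bp downstream of a start that was open in both lists.

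Of 24 mesenchymal and contractile cytoskeleton genes, 3 had a TGFβ-only peak. Cald1 codes for caldesmon, an actin-binding protein of contractile cells. Its peak of 849 bp at the ceiling had the midpoint 6 bp upstream of the first start, 11465 bp from any vehicle peak, while another of its 11 starts carried a shared peak. Mylk codes for myosin light chain kinase, which activates contraction. Its peak of 353 bp scored 924, covered the first start with its midpoint 98 bp upstream, and lay 26876 bp from a vehicle peak, and no start of Mylk had a shared peak. Tpm4, a tropomyosin gene, had one centred 1288 bp downstream of a start that was open in both lists.

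Of 21 matrix proteases and inhibitors, 4 had a TGFβ-only peak. Timp3, an inhibitor of metalloproteases, had one of score 728 at an alternative start, within an intron of Syn3 on the opposite strand. Adam12, Adamts1 and Adamts6 code for metalloproteases, and their peaks scored 551, 545 and 661. That of Adamts6 was centred 823 bp downstream of the start, in an intron, with a shared peak in the same start window. The peak of Adamts1 covered the first start with its midpoint 65 bp upstream, and the gene had a shared peak at another start. The nearest vehicle peak was 1323 bp away. Of 20 collagens and basement membrane genes, Lama3 and Nid1 had a member. Lama3 codes for a laminin chain of epithelial basement membranes, and its peak of score 768 was centred 1134 bp upstream of an alternative start and held the AP-1 motif. Nid1 codes for nidogen, and its peak of score 585 covered its only start with the midpoint 193 bp downstream. Of 23 epithelial junction genes only Lad1 had one, with a score of 549. The epithelial marker Krt8 also had one, of score 882, centred 889 bp upstream of its start and 90 bp from a vehicle peak.

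Signalling genes outside the TGFβ pathway were also represented. Of 15 genes in the MAPK feedback list, Dusp2, Spry1 and Spred2 had a member. Dusp2 codes for a phosphatase that switches off MAP kinases, and its peak of score 806 covered the start, 64795 bp from any vehicle peak. The peaks at Spry1 and Spred2, whose proteins restrain the Ras to MAPK route, lay 84 and 766 bp from a vehicle peak. Of 23 Notch and Wnt genes, Wnt7b, Tcf7l1 and Dkk1 had a member and no shared peak at any start. Wnt7b codes for a ligand, Tcf7l1 for a DNA-binding repressor of Wnt targets and Dkk1 for a secreted antagonist, and the 3 scores were 721, 609 and 644. Of 13 AP-1 factors, Batf3 and Mafk had one. The peak of Batf3 scored 569 and covered its start. That of Mafk scored 749, was centred 386 bp upstream of an alternative start and held the AP-1 motif. Of 14 YAP and TEAD genes Amotl2, whose protein binds YAP, had a peak of score 555 at an alternative start, 118 bp from a vehicle peak. Across all the listed genes, 2 peaks were at the ceiling (Smad6 and Cald1).

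Cases outside the lists were taken by rank of score and then of width. In 397 first-start peaks no other peak of either list stood at any start of the gene, and 24 of these were at the ceiling. The 8 widest were at Hsd3b7, 2310016M24Rik, Ctdsp1, Rimbp3, Enox2, Lgals3bp, Hyal1 and Arrdc4, with widths from 1269 bp down to 720 bp. Hsd3b7 codes for an enzyme of bile acid synthesis, and its peak was centred 115 bp downstream of a start. The peak given to 2310016M24Rik had its midpoint 1114 bp upstream of that gene's start, in an untranslated exon of the neighbouring gene Gpd1. It did not cover the start, and neither did the peaks of Hyal1 and Rimbp3. That of Hyal1 was centred 1047 bp upstream, and that of Rimbp3 1120 bp downstream in a coding exon. Ctdsp1 codes for a phosphatase of the RNA polymerase II tail. Hyal1 codes for a hyaluronidase, Lgals3bp for a secreted galectin-binding protein and Arrdc4 for an arrestin-domain protein. The nearest vehicle peak lay between 4031 bp (Ctdsp1) and 592268 bp (Enox2) away. None of the 8 held the AP-1 motif in the central 200 bp.

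At alternative starts, 69 peaks lay over 1000 bp from any vehicle peak while the first start of the gene was open in both lists, and 9 of these were at the ceiling. The 8 widest of those were at Rasgef1b, Abr, Pacsin2, Hip1r, Prkci, Dram1, Lasp1 and Pla2g6. Lasp1 codes for an actin-binding protein of focal adhesions, Pacsin2 for a membrane-bending protein and Hip1r for a link between clathrin and actin. Prkci codes for an atypical protein kinase C of epithelial polarity, and Dram1 for a membrane protein of autophagy. The widths ran from 996 bp (Rasgef1b) to 546 bp (Pla2g6), and the nearest vehicle peak was between 3143 and 21306 bp away. The Pacsin2 peak was centred 6 bp upstream of its alternative start, 31756 bp downstream of the first. Others did not reach their alternative start. Those of Abr and Lasp1 were centred 1407 and 1153 bp upstream of it, and those of Rasgef1b and Hip1r 921 and 668 bp downstream. All 8 midpoints lay in introns. The AP-1 motif was found in 3 of them, those shown above.

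Of the 126 peaks beside a shared peak, 11 were at the ceiling, and the 4 widest of these were at Aim1, Foxq1, Plin3 and Smad6. Foxq1 codes for a forkhead transcription factor, and its peak of 642 bp covered the start, 115 bp from a vehicle peak. Plin3 codes for a lipid droplet protein, and its peak was centred 889 bp upstream of the start and lay 146 bp from a vehicle peak. The peak of Aim1 was centred 1291 bp upstream, 1097 bp from a vehicle peak, and held the AP-1 motif.

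The last question was which transcription factor motifs the peaks held, a measure the selection did not use. In all, 14 motifs were searched as exact letters on both strands in the 200 bp around the midpoint. AP-1 (TGACTCA) was present in 79 of the 804 TGFβ-only promoter peaks (9.83%, 7.96 to 12.1), in 2.31% of vehicle-only promoter peaks (1.38 to 3.84) and in 2.24% of shared ones (1.96 to 2.56). The difference from vehicle-only peaks was 7.52 percentage points (5.10 to 9.95). With the whole TGFβ-only peak searched in place of the 200 bp, the 9.83% became 19.0%. In windows 2000 bp from the TGFβ-only midpoints the share was 3.98% (2.83 to 5.56), and in the 200 bp upstream of 45975 coding starts it was 3.04%. The share in TGFβ-only promoter peaks was below that of TGFβ-only peaks away from coding starts (27.0%, 25.9 to 28.0), and shared peaks there held the motif in 22.4% (21.3 to 23.5). A match counts letters and does not show that a protein was bound.

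AP-1 was the only one of the 14 motifs whose difference between TGFβ-only and vehicle-only promoter peaks had an interval that left out 0. These intervals were not adjusted for the number of motifs. For the SMAD motifs, CCAGACA was found in 5.35% of TGFβ-only and 4.29% of vehicle-only promoter peaks (difference 1.06 points, -1.29 to 3.29), and GGCGCC in 14.7% and 16.3% (difference -1.66 points, -5.55 to 2.12). The palindrome GTCTAGAC was found in 3 TGFβ-only peaks, 1 of them that of Smad6, and in 1 vehicle-only peak. The TEAD motif GGAATG was found in 7.71% and 8.91%, and the Snail E-box CACCTG in 16.5% and 18.5%. The GC box GGGCGG, bound by Sp1 family proteins, was found in 36.2% and 37.8%. Against shared promoter peaks, 12 of 14 differences left out 0. Higher in TGFβ-only peaks were AP-1, the SMAD motif CCAGACA (5.35% against 2.67%, difference 2.67 points, 1.28 to 4.48), the SMAD palindrome (0.373% against 0.108%), TEAD, the Snail E-box, the RUNX motif TGTGGTT (3.36% against 1.63%) and the TATA box TATAAA. Lower were the GC box (36.2% against 59.0%), the ETS motif CCGGAAG (4.48% against 12.9%), GGCGCC, the CCAAT box and the NRF1 motif GCGCATGC. The GC content was lower too, as given above, and most of these differences were not kept when CpG-rich peaks and the others were compared apart. The intervals stood apart the same way within both classes for AP-1, the GC box, the ETS motif and the CCAAT box only. TEAD was no higher in either class (4.77% against 5.07% in CpG-rich peaks and 10.3% against 10.6% in the others), the Snail E-box was at 17.3% and 17.4% in peaks that were not CpG-rich, and GGCGCC was at 26.3% against 23.9% in CpG-rich peaks. In the windows 2000 bp away, TEAD (11.2%), the Snail E-box (17.0%), RUNX (4.98%), the TATA box (13.1%) and the SMAD palindrome (0.498%) were at or above their shares in the TGFβ-only peaks, and CCAGACA was at 3.73% (2.63 to 5.28).

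**Figure D4:**
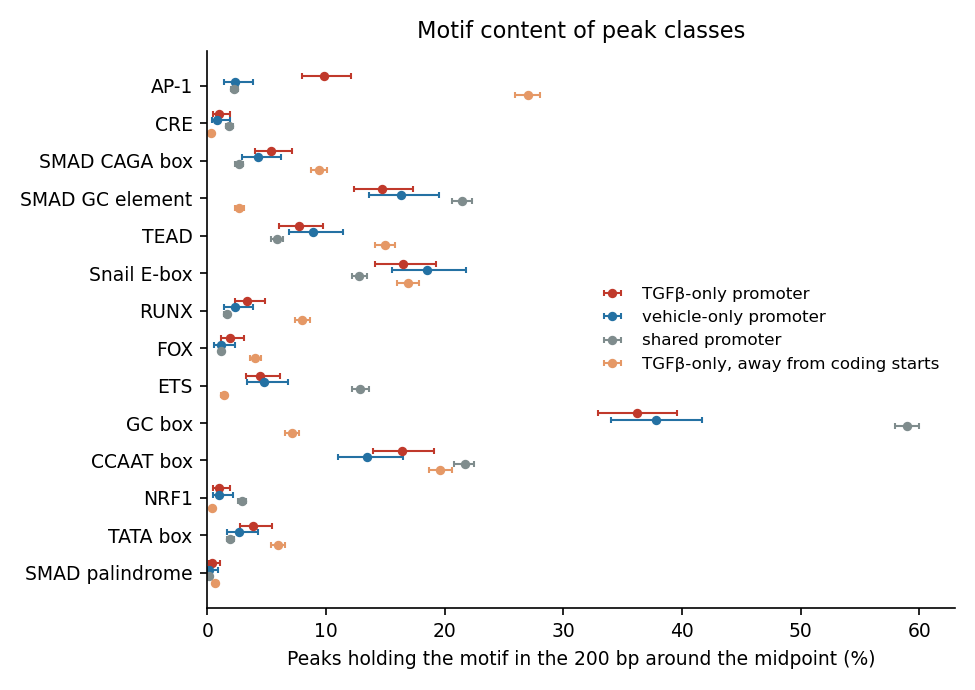
Share of peaks with each of 14 motifs in the 200 bp around the midpoint (x axis, %) in 804 TGFβ-only promoter peaks (red), 606 vehicle-only promoter peaks (blue), 9239 shared promoter peaks (grey) and 6807 TGFβ-only peaks away from coding starts (orange). Points are shares and bars Wilson 95% intervals. The red and blue intervals meet for every motif but AP-1, with 9.83% against 2.31%, and shared promoter peaks stand apart at the GC box with 59.0%.

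The AP-1 share varied within the TGFβ-only peaks. It was 16.2% at alternative starts (11.7 to 21.9) and 7.76% at first starts (5.88 to 10.2), a difference of 8.41 points (3.33 to 14.5). The alternative-start peaks had a median GC content of 57.5% and the first-start peaks one of 62.0%, and the part of that in the difference was not tested. By position, the share was 21.8% over 500 bp upstream (14.1 to 32.2) and 12.8% from 100 to 500 bp upstream (8.23 to 19.3). It was 5.28% within 100 bp of a start (3.17 to 8.67) and 4.64% from 100 to 500 bp downstream (2.46 to 8.58). Over 500 bp downstream it was 16.7% (11.2 to 24.1). Shared promoter peaks held the motif in 8.88%, 3.04%, 1.74%, 1.74% and 7.06% at these positions, in the same order. By score the share in TGFβ-only promoter peaks was 6.85% in the lowest bin (4.48 to 10.3) and 17.0% at the ceiling (9.20 to 29.2). Over the same bins it went from 20.8% to 39.8% in TGFβ-only peaks away from coding starts, and it was 3.86% and 2.00% in shared promoter peaks. The intervals of TGFβ-only and shared promoter peaks met in the lowest bin (4.48 to 10.3 against 2.05 to 7.18). They met in the second bin too (4.59 to 11.6 against 1.36 to 4.83) and stood apart in the higher ones. Peaks that were not CpG-rich held the motif in 15.7% (12.5 to 19.4) and CpG-rich ones in 3.18% (1.83 to 5.48), and the shares in shared promoter peaks had the same order, 7.48% and 1.37%. Vehicle-only promoter peaks held it in 3.62% (1.98 to 6.54) and 1.21% (0.472 to 3.07), so the intervals of TGFβ-only and vehicle-only peaks stood apart in peaks that were not CpG-rich and met in CpG-rich ones.

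Since AP-1 matches were rarer in GC-rich sequence, the classes were set side by side in 4 bins of GC content with about equal numbers of TGFβ-only promoter peaks. Below 54% GC the share was 19.1% for TGFβ-only (14.2 to 25.1), 5.65% for vehicle-only (2.76 to 11.2) and 8.20% for shared promoter peaks (6.20 to 10.8). From 54% to 60.5% GC the shares were 11.5%, 2.22% and 4.42%, and from 60.5% to 69% they were 8.37%, 2.31% and 1.87%. In the bin of 69% and over the order was not kept, with 1 of 202 TGFβ-only peaks (0.495%, 0.0874 to 2.75), 0 of 174 vehicle-only peaks (Wilson interval 0 to 2.16) and 1.09% of shared peaks (0.818 to 1.45). The TGFβ-only share was thus the highest of the promoter classes in 3 of 4 bins. The intervals of TGFβ-only and vehicle-only peaks met in the third of these bins (5.29 to 13.0 against 0.903 to 5.79) and not in the first and second.

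**Figure D5:**
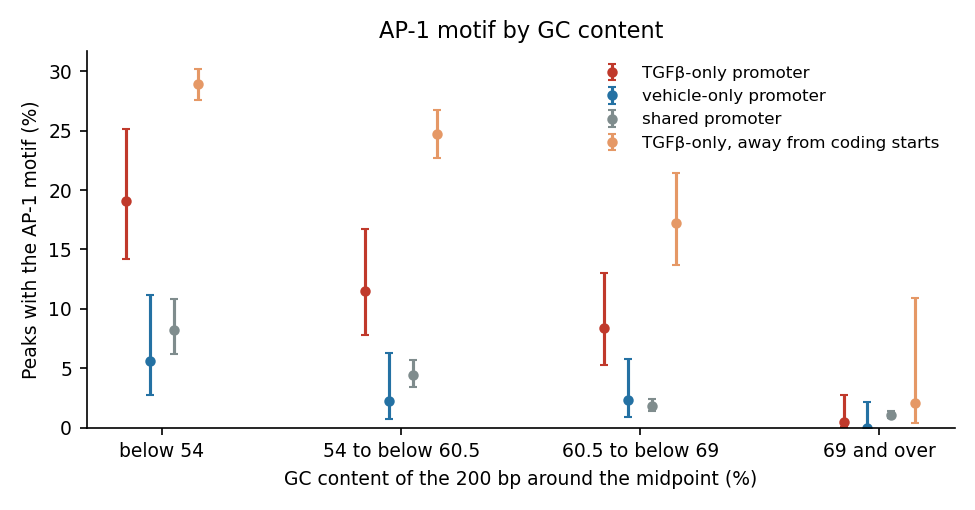
Share of peaks with TGACTCA (y axis, %) by GC content of the 200 bp around the midpoint (x axis, 4 bins) in TGFβ-only (red), vehicle-only (blue) and shared (grey) promoter peaks and in TGFβ-only peaks away from coding starts (orange). Bars are Wilson 95% intervals over peaks. The red points run from 19.1% below 54% GC to 0.495% at 69% and over, above the blue and grey points in the first 3 bins, and below the orange points in all 4.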

How the data were processed

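DNaseI-seq peak lists of 2 samples of NMuMG cells were used, 1 list per condition, grouped by their titles. The authors aligned reads to mm9 and passed them through the steps of their ATAC-seq pipeline with options not given in the sources used here. For ATAC-seq these called peaks with MACS2 (the submitters' processing notes name version 2.1.2 and deepTools) and kept those with an irreproducible discovery rate under 0.05. The series text speaks of duplicates. Separate replicate lists were not analysed here. The deposited score of each peak is a whole number from 540 to a ceiling of 1000, and it was used only to rank peaks within a list. The lists give no read depth, so the precision of a single peak is unknown.

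The 70449 vehicle and 68542 TGFβ 2 h rows were collapsed to distinct intervals. A peak was shared if it overlapped a peak of the other list by at least 1 bp. Promoter peaks overlapped the 1000 bp on either side of a GENCODE M1 protein-coding transcript start. Sequence was read from NCBIM37, the same assembly, with Python 3.11.15 and numpy 2.4.6. Score bins were the ceiling and 4 bins of about equal size below it. Shares carry Wilson 95% intervals and differences Newcombe 95% intervals. No test was run, and 42 motif differences were computed. The steps were tested on simulated data.

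Members, gene lists, motifs and comparisons were chosen with earlier results of these data known. The rule for named genes took the members in the lists (the first 30, of which those of 1 list are not reported here), the 8 highest-ranked first-start peaks with no other peak at the gene, the 8 highest-ranked alternative-start peaks over 1000 bp from a vehicle peak with a shared first start, the 4 highest-ranked beside a shared peak, and those next to a threshold. Krt8 is a marker gene. Sequences were printed for ranked peaks of the first and second kind with TGACTCA and no exon, which gave 3. The rates by start, CpG content and score, the AP-1 shares by GC, score, position and CpG content, the intervals of differences and the sequences of Smad6, Mylk and Mafk were added after values had been seen.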

Additional observations from a re-analysis of the deposited data

How the results depend on the processing

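The results were recomputed with other windows, overlaps, score limits and transcript sets, and of 81 recomputed values 50 moved by less than their counting interval or, for counts, by less than 1.5 times, and 31 moved further. None has a test, and the cause was not tested. Asking for a reciprocal overlap of 50% before a peak counts as shared gave 1440 peaks in place of 804, 909 genes in place of 555, 81.7% at a first start, 18.8% at the ceiling, an AP-1 share of 6.67% and a GC content of 62.2%. Cutting the TGFβ 2 h list to the number of vehicle peaks by score gave 395 peaks and 261 genes, with 71.4% at a first start, 13.4% at the ceiling, a width of 497 bp, 46.1% of midpoints downstream and an AP-1 share of 13.9%. Keeping only ceiling peaks left 53 peaks and 34 genes, a width of 649 bp, 35.8% of midpoints downstream, an AP-1 share of 17.0%, a GC content of 57.0% and, for 14 alternative-start peaks, 64.3% with a shared peak at another start, in place of 50.5%. So the lean of midpoints to the downstream side (54.7%) was not kept under either score limit. With transcripts of any biotype 68.9% were at a first start, the AP-1 share was 13.2%, the GC content 58.0% and the share with a shared peak at another start 58.5%. Without coding transcripts that begin inside coding sequence, 78.9% were at a first start. The share with a shared peak at the same start (15.7%) was 7.95% with a window of 500 bp, 0.610% over 1000 bp from any vehicle peak, 22.8% under the reciprocal overlap and 20.8% at the ceiling. Searching the whole peak gave an AP-1 share of 19.0%, and asking for over 1000 bp to any vehicle peak a width of 469 bp. No paired analysis was possible because the results come from no test and replicate lists were not analysed, and for the same reason no replicate was left out. Replicate lists were not analysed and read numbers not used, so how many sites lie close to the calling limit in both conditions was not tested.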

Other observations

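By chromosome, the TGFβ-only share of promoter peaks ran from 4.25% on chromosome 17 (21 of 494, Wilson 95% interval 2.80 to 6.41) to 11.4% on chromosome X (34 of 299, 8.25 to 15.5), and the interval also left out the share over all promoter peaks, 8.01%, on chromosome 8 (5.71%, 4.05 to 7.99). The intervals by chromosome were not adjusted for the number of chromosomes compared. Of the 804 TGFβ-only promoter peaks, 38 lay at starts on both strands (4.73%, 3.46 to 6.42), against 12.1% of shared promoter peaks (11.4 to 12.8). The gap from a TGFβ-only promoter peak to the nearest vehicle peak had a median of 16893 bp with an interquartile range from 3470 to 53076 bp. By width, 41.9% of promoter peaks under 327 bp were TGFβ-only, against 2.68% of those of 604 bp and over.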
